A study of Mus musculus with 6 samples.

Results

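The mitochondrial ribosomal protein genes described here are those with a mouse symbol that begins with Mrpl (large subunit) or Mrps (small subunit) followed by a digit. The arrays carry 116 probes for 78 such genes, 49 named Mrpl and 29 named Mrps, among 19740 genes and transcripts tested in all and 41174 probes. They were put forward as a group after earlier results of the same miR-29 against control comparison were known, so in effect they were selected on their fold changes in that comparison. These fold changes are given as a description, and nothing is read from how many pass a threshold. All 78 were measured well above background on each of the 6 arrays, so none entered through the group in which it was high.

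The cells were primary astrocytes, the star-shaped support cells of the brain, from the cerebral cortex of C57BL/6 mice at embryonic day 18, bought as a ready culture. In the miR-29 group, 3 arrays followed transfection with a mixture of hsa-miR-29a, hsa-miR-29b and hsa-miR-29c precursors (Ambion Pre-miR), with the miR-29b precursor in the largest share. In the control group, 3 arrays followed transfection with the Pre-miR Negative Control1. Both used 80 nM and the reagent RNAiMax some weeks after plating, with harvest 48 h later, so every cell had been through a transfection and there was no untransfected group. Replicates were separate RNA extractions, and no label states that each had its own culture. Tests here therefore cover the spread between these extracts alone, which can be technical. A transfected precursor can raise a microRNA far above the level a cell makes itself, which limits what the culture models.

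Mitochondria carry their own ribosomes, which read only the few messages of mitochondrial DNA, and these encode core subunits of the respiratory chain. The RNA of that ribosome is made inside the mitochondrion, while each of its proteins is encoded in the nucleus, made in the cytosol and imported. Part of the proteins descend from bacterial ribosomal proteins and part have no bacterial counterpart, and astrocytes need the ribosome for respiration as other brain cells do.

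The mature mouse forms of the transfected family, from RefSeq with the GRCm38.p6 table, are shown because they define the treatment. Capitals mark the seed, bases 2 to 8, which is the same AGCACCA in all 3.
mmu-miR-29a-3p: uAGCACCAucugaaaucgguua
mmu-miR-29b-3p: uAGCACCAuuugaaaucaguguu
mmu-miR-29c-3p: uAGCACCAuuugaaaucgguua

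The promoters of these genes were searched for short motifs of factors known from textbooks to act on nuclear genes for mitochondrial proteins. The search covered 250 bases before and 50 bases after each RefSeq start (GRCm38.p6), and 69 of the 78 genes have a promoter in that table. The ETS core CCGGAAG, bound by GABPA, was found on either strand in 26 of the 69 (37.7%), against 9.93% of all 27025 genes with a promoter in the table. Among the 10943 genes tested here that have one, the share was 18.1%. The NRF1 letters GCATGCGC were in 8 (11.6%) against 3.05% of all and 5.44% of the tested genes. The YY1 letters AAGATGGCG were in 8 (11.6%) against 1.64% of all and 3.22% of the tested genes. The E-box CACGTG, used by MYC among others, was in 5 (7.25%), against 8.09% of all and 11.3% of the tested genes. At least 1 of the ETS, NRF1 and YY1 motifs was in 36 promoters, and 6 promoters held 2 or more of them. A match describes the letters only and is not a shown binding site.

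Windows of 30 bases around the matches are shown for the genes at both ends of the range of fold changes, so that high and low genes can be set side by side. Capitals mark the match, and each window is on the strand of its gene. An ETS match is in capitals in those of Mrpl53 (chr6:83109037-83109066 and chr6:83109080-83109109, plus strand), Mrps33 (chr6:39810887-39810916, minus strand), Mrpl58 (chr11:115403723-115403752, plus strand) and Mrps22 (chr9:98601673-98601702, minus strand). These 4 genes were among the 8 with the largest positive fold changes. Mrpl58 had an ETS match at a further place in the same promoter, and the match of Mrps33 lies after the start.
Mrpl53 first: accgcggagccgCCGGAAGcggtccgttcc
Mrpl53 second: ccagtgctactcCTTCCGGggtggaggtaa
Mrps33: aagtaaaggggggcgggcCTTCCGGggacg
Mrpl58: gctggcggaccgCCGGAAGagtgagcaccg
Mrps22: aaacctctcgagCCGGAAGttgctctatcg

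The genes with the largest negative fold changes also held matches. Capitals mark a YY1 match in Mrpl37 (chr4:107066822-107066851, minus strand), an ETS match in Mrpl27 (chr11:94653724-94653753, plus strand) and Mrpl18 (chr17:12916312-12916341, minus strand), and an NRF1 match in Mrpl32 (chr13:14613041-14613070, minus strand). Mrpl32 had an NRF1 match at 2 further places in the same promoter, and the match of Mrpl37 lies after the start.
Mrpl37: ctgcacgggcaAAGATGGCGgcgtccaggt
Mrpl27: tgtccgcaagacCCGGAAGtagatctatcc
Mrpl18: actgaaaacgCCGGAAGtagggggctgcgg
Mrpl32: gcggacttaacGCATGCGCtcagcccgcgt

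The promoters of Mrpl49, Mrps5, Mrpl2, Mrps6 and Mrps14 held none of the ETS, NRF1 and YY1 letters in this window. Mrpl38, also among the highest genes, has no promoter in the RefSeq set used, so it could not be searched. The ETS core therefore stood in promoters of genes at both ends. The median log2 fold change, miR-29 minus control, was 0.22 over the genes with the ETS core and 0.30 over those without it. For YY1 the medians were 0.16 with and 0.31 without the letters, and for NRF1 they were 0.29 with and 0.29 without. For the E-box they were 0.24 with and 0.29 without, and its letters stood in the promoters of both Mrpl2 and Mrpl37.

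Mitochondrial ribosomal protein genes were mostly higher in the miR-29 arrays when each array was scaled to its own 75th percentile of signal, and the differences were small. The median log2 fold change over the 78 was 0.29, against 0.07 over all genes tested, and the middle of the range ran from 0.13 (lower quartile) to 0.41 (upper quartile). Values spanned -0.75 (Mrpl37) to 0.88 (Mrpl53), 66 were above 0, and 63 (80.8%) were above the median of all genes. No gene of the group passed a 2-fold change in either direction. The 5 that passed 1.5-fold were Mrpl53, Mrpl49, Mrps5 and Mrps33, which were higher, and Mrpl37, which was lower. The probes of these genes were bright, with a mean log2 signal 3.05 to 3.35 above the median of all genes on each array. The all-gene values and background shares are therefore not matched for signal, and the part of signal level was not tested. A changed number of cells of a type and a changed amount of RNA per cell cannot be told apart in these bulk samples.

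With limma over all 19740 genes and a Benjamini-Hochberg adjusted p under 0.05, 54 of the 78 were called higher, where the background share called higher is 35.3%. Another 6 were called lower, where the background is 22.7%, and 18 did not pass. The 3 arrays of a group lay wholly above those of the other for 61 genes in the direction of miR-29 and for 10 in the direction of control. Over all genes those shares are 39.9% and 26.3%. Since this comparison selected the group, the counts are descriptive.

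**Figure D1:**
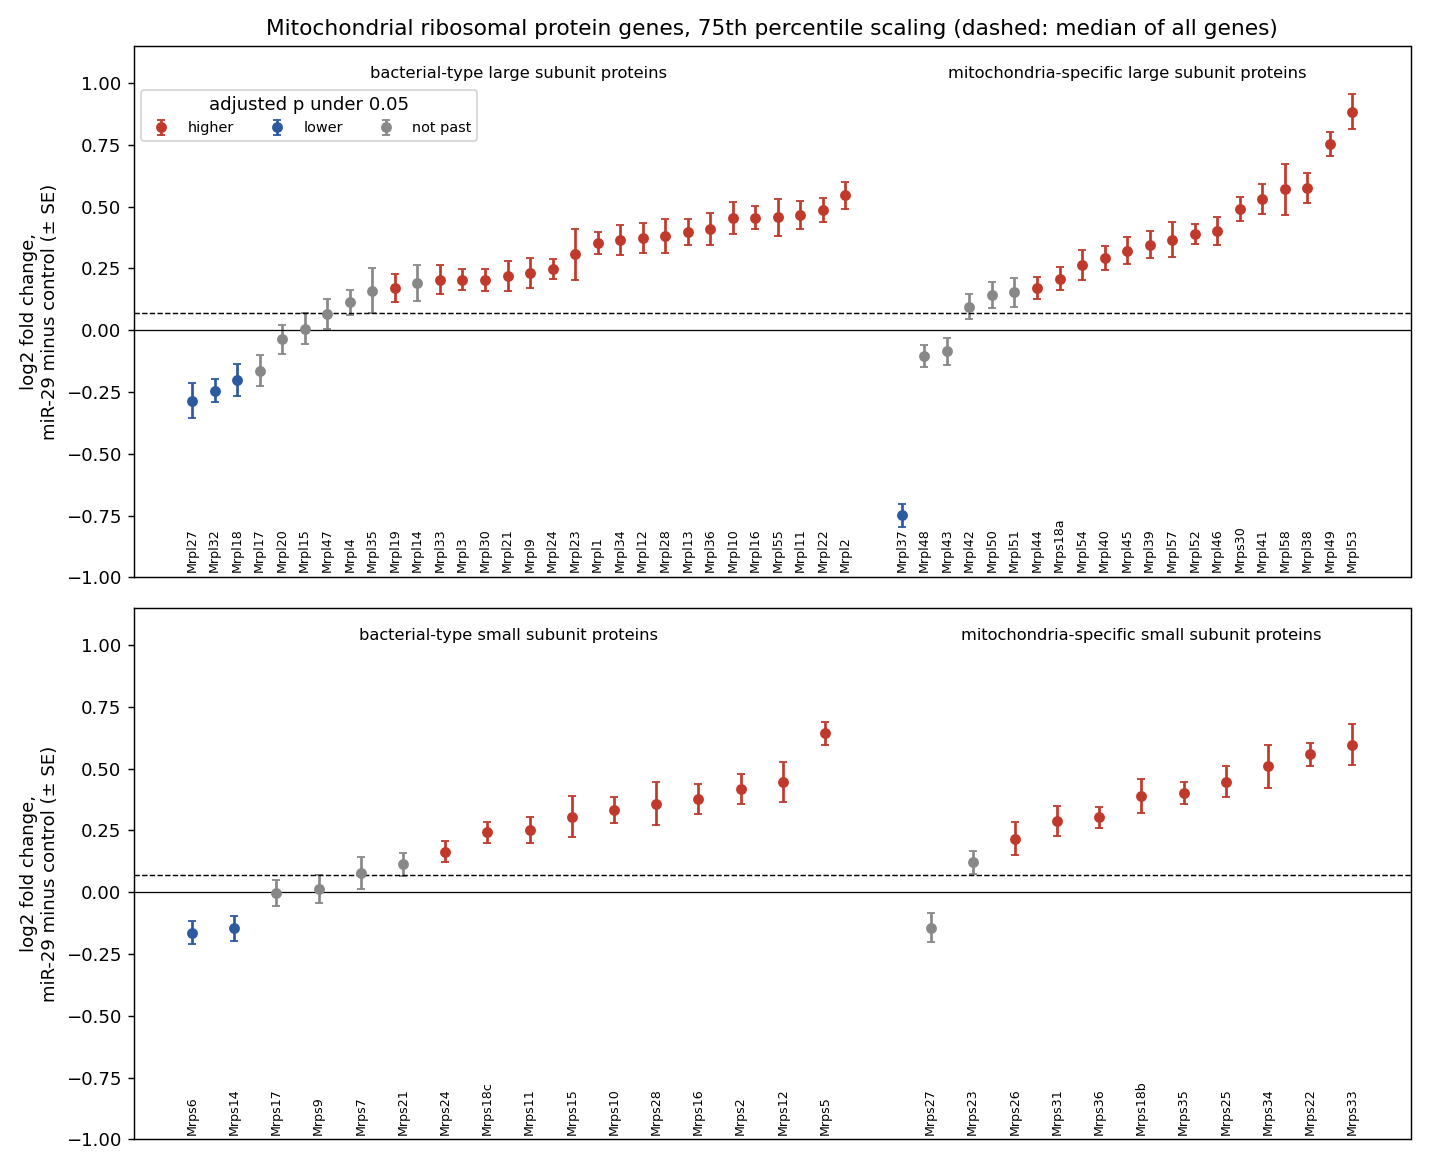
The log2 fold change (miR-29 minus control, 75th percentile scaling) is plotted for each of the 78 genes, by subunit and origin, with bars for the SE of the limma fit over 6 arrays. Most points lie above the dashed median of all genes at 0.07, and Mrpl37 stands alone at -0.75.

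The direction depends on what the arrays are scaled to. Scaling each array to the 6 types of E1A spike-in spots that were well above background on every array shifted every fold change by -0.25 on the log2 scale, and the median of all genes became -0.18. On that scale the median of the 78 was 0.04, with 42 above 0. Then 18 were called higher (background 15.2%), 12 lower (background 38.5%) and 48 did not pass. Groups did not overlap for 27 genes higher (background 19.2%) and 18 lower (background 44.4%). The sources used here do not say how or when spike-in RNA was added. The position of the group relative to all genes, 0.22 above their median, is the same on both scales because the scaling shifts every gene alike.

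Of the 54 genes called higher under the 75th percentile, 18 stayed higher with the spike-ins, 0 became lower, and 12 had a negative fold change. All 6 called lower stayed lower. The 6 that became lower were Mrpl17, Mrpl20, Mrpl43, Mrpl48, Mrps17 and Mrps27, at -0.25 to -0.41 with the spike-ins.

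The 18 genes called higher on both scales came from both subunits. They were the 8 with the largest fold changes, described below by subunit, and 10 more. In the large subunit these were Mrpl10, Mrpl11, Mrpl16, Mrpl22, Mrpl41, Mrpl55 and Mrps30, with log2 fold changes of 0.46 to 0.53 under the 75th percentile and 0.20 to 0.28 with the spike-ins. In the small subunit they were Mrps12, Mrps25 and Mrps34, at 0.45 to 0.51 and 0.20 to 0.26. Mrpl41 read 3.56, 3.59 and 3.52 in miR-29 and 3.13, 2.95 and 3.00 in control. Mrps34, a mitochondria-specific protein, read 4.38, 4.34 and 4.26 in miR-29 and 3.98, 3.79 and 3.68 in control. In both genes the groups were apart and control replicate 1 was the highest control.

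**Figure D2:**
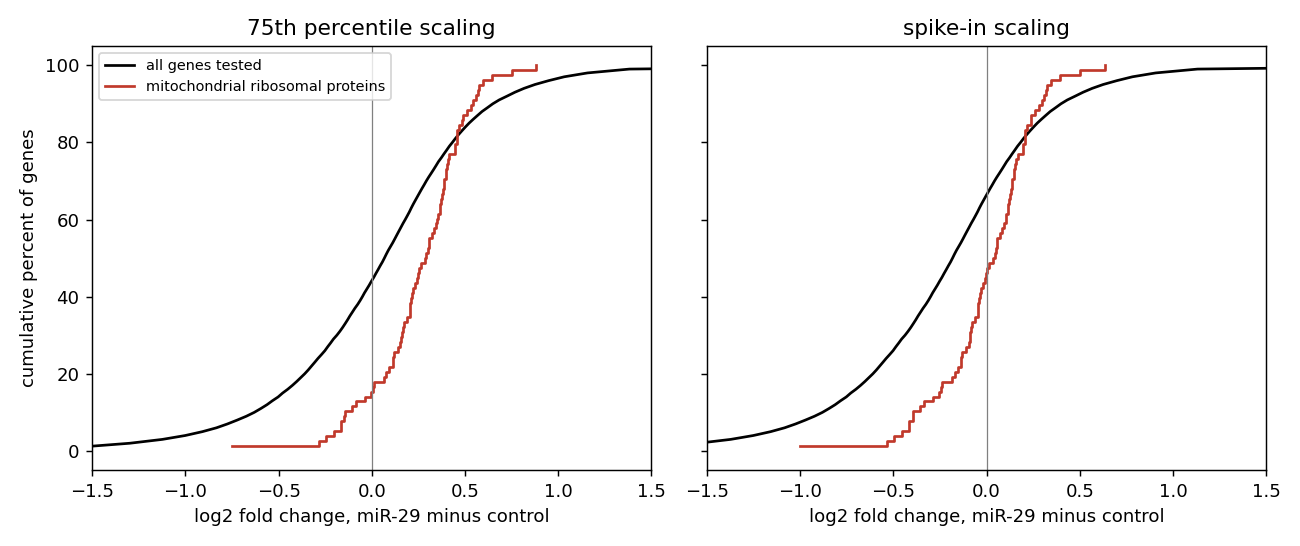
The cumulative percent of genes is plotted against the log2 fold change (miR-29 minus control) for the 78 genes in red and all 19740 genes in black, with 75th percentile scaling on the left and spike-in scaling on the right. The red curve lies to the right of the black over most of its range, with medians of 0.29 against 0.07 on the left and 0.04 against -0.18 on the right, and it is narrower at both ends.

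Averaged over the 78 genes, the log2 signal relative to the 75th percentile was 2.64, 2.63 and 2.62 on the miR-29 arrays against 2.44, 2.35 and 2.34 on the control arrays, listed by replicate number. The group means were 2.63 ± 0.01 and 2.38 ± 0.05 (SD, n = 3 each), and the groups did not overlap. Control replicate 1 was the control array nearest to the miR-29 arrays, and it is the control array that shared slide 1 with them, while control replicates 2 and 3 were on slide 2. With the spike-ins the averages were 2.44, 2.52 and 2.55 for miR-29 and 2.50, 2.47 and 2.53 for control, and the groups overlapped.

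**Figure D3:**
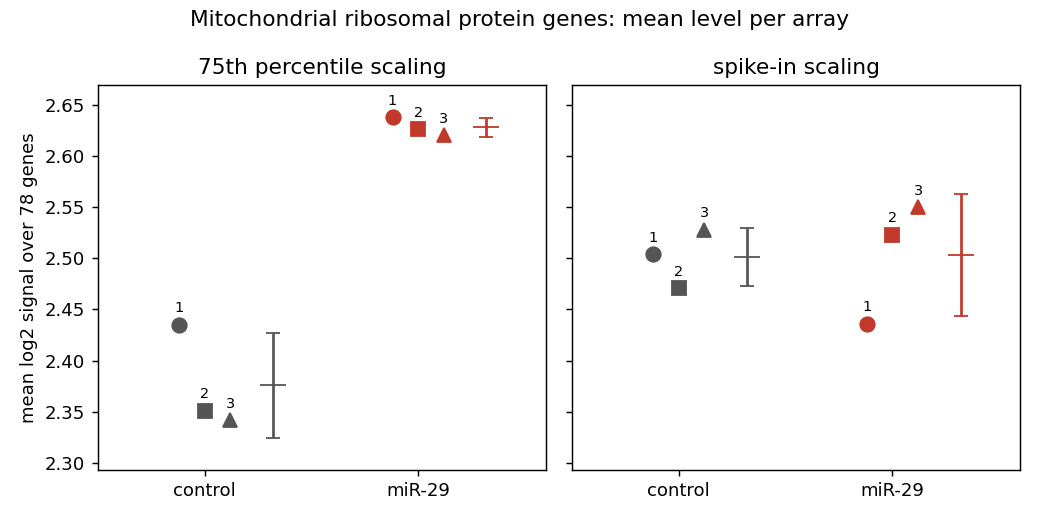
The mean log2 signal over the 78 genes is plotted for each array (numbered by replicate), with a cross for the group mean and a bar for its SD (n = 3), under the 75th percentile scaling on the left and the spike-in scaling on the right. On the left the miR-29 arrays (2.62 to 2.64) lie above the control arrays (2.34 to 2.44), and on the right the groups overlap.

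With slide as a block, the comparison rests on slide 1, which alone holds both groups. The median of the 78 genes was then 0.22, against 0.10 for all genes, with 41 called higher (background 28.7%) and 4 lower (background 18.3%). Those 41 were all among the 54, and 3 of the 4 were among the 6. On slide 1 alone, with 3 miR-29 arrays and 1 control array, 38 were called higher (background 26.6%) and 3 lower (background 16.3%) around the same median. There the lone control array is assumed to vary as the miR-29 arrays do.

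The large subunit, which forms peptide bonds, is made of both kinds of protein. Of its 30 proteins of bacterial type, 20 were called higher (background 35.3%) and 3 lower (background 22.7%), with a median log2 fold change of 0.23 (75th percentile scaling). With the spike-ins 6 were higher (background 15.2%) and 5 lower (background 38.5%), with a median of -0.02. Of its 21 mitochondria-specific proteins, which include the products of Mrps18a and Mrps30 in spite of their names, 15 were called higher and 1 lower, with a median of 0.32. With the spike-ins 6 were higher and 3 lower, with a median of 0.07, against the same backgrounds.

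Mrpl53, a mitochondria-specific protein near the base of the stalk that recruits translation factors, had the largest positive fold change. Its log2 signal relative to the 75th percentile was 4.203, 4.205 and 4.21 on the miR-29 arrays against 3.46, 3.27 and 3.24 on the control arrays. The groups were far apart, with the miR-29 arrays almost alike and control replicate 1 the highest of the controls. The log2 fold change was 0.88 ± 0.07 (SE), a fold of 1.845, and it was 0.63 with the spike-ins and 0.75 with slide as a block. The last 100 bases before the start of this gene (chr6:83109008-83109107, GRCm38.p6, plus strand) are printed with both ETS matches in capitals, as the promoter of the gene at the top of the range.
Mrpl53 promoter: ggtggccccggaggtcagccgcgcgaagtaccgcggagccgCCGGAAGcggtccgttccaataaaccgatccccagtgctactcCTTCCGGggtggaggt

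Mrpl49, another mitochondria-specific protein of the large subunit, read 2.20, 2.20 and 2.11 on the miR-29 arrays against 1.40, 1.43 and 1.42 on the control arrays. The groups did not overlap and the controls were close together, with a log2 fold change of 0.75 ± 0.05 (SE). Its 2 other probes gave 0.62 and 0.54, so 3 probes of this gene gave values of the same sign and order. Mrpl38, at the central protuberance on top of the subunit, read 2.23, 2.25 and 2.34 in miR-29 and 1.79, 1.64 and 1.67 in control, a log2 fold change of 0.57 ± 0.06 (SE).

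Mrpl58, a peptidyl-tRNA hydrolase that frees stalled ribosomes and is also built into the large subunit, read 3.06, 3.02 and 2.94 on the miR-29 arrays. On the control arrays it read 2.66, 2.37 and 2.29. The groups did not overlap, but control replicate 1 stood well above the other controls. The log2 fold change was 0.57 ± 0.10 (SE) over all arrays and 0.35 with slide as a block. Mrpl2, which lies by the catalytic centre, read 1.80, 1.76 and 1.84 in miR-29 and 1.33, 1.24 and 1.19 in control, and its log2 fold change was 0.55 ± 0.06 (SE).

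Of the stalk proteins, Mrpl10, Mrpl11, Mrpl12, Mrpl53 and Mrpl54, all 5 were called higher under the 75th percentile scaling (background 35.3%), with a median log2 fold change of 0.46. With the spike-ins 3 of them (Mrpl10, Mrpl11 and Mrpl53) were called higher (background 15.2%). Mrpl54 was at 0.01 there and lost its call with slide as a block (0.18). Mrpl12, the protein that contacts translation factors, read 3.88, 3.85 and 3.87 in miR-29 against 3.60, 3.45 and 3.43 in control, a log2 fold change of 0.37 ± 0.06 (SE), and 0.12 with the spike-ins. Of 7 proteins listed as around the exit tunnel, through which the new chain leaves, 6 were called higher (background 35.3%) and 0 lower (background 22.7%). With the spike-ins only Mrpl22 of these was called, at 0.24. Of 6 proteins listed for the central protuberance 4 were called higher and 1, Mrpl18, lower, against the same backgrounds. With the spike-ins 2 were higher (background 15.2%) and 2, Mrpl18 and Mrpl48 (-0.35), lower (background 38.5%). These lists of stalk, tunnel and protuberance proteins, from textbook knowledge, were not checked against a structure and may be incomplete. Among large subunit genes on none of them, Mrpl17 was at -0.16 (not called), Mrpl27 at -0.29 (called lower) and Mrpl55 at 0.46 (called higher). The counts cover the listed genes alone.

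Mrpl37 differed from the rest in the other direction. This mitochondria-specific protein of the large subunit read -0.08, -0.10 and -0.12 on the miR-29 arrays against 0.70, 0.64 and 0.62 on the control arrays. The groups were far apart, with a small spread in each. The log2 fold change was -0.75 ± 0.05 (SE), a fall of 40.5% in signal, and it was -0.9997 with the spike-ins and -0.79 with slide as a block. It is measured by 1 probe, which was well above background on all arrays.

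The other large subunit genes called lower changed less. Mrpl27, whose bacterial counterpart reaches into the catalytic centre, read 3.23, 3.175 and 3.104 in miR-29 and 3.57, 3.41 and 3.38 in control, a log2 fold change of -0.29 ± 0.07 (SE). Mrpl32, a protein matured by the m-AAA protease of the inner membrane, read 0.93, 0.89 and 0.88 in miR-29 and 1.13, 1.12 and 1.18 in control, with -0.24 ± 0.05 (SE). Both stayed lower with slide as a block, at -0.40 and -0.23, but with median centring Mrpl27 was not called, at -0.28. Mrpl18, a member of the protuberance, read 2.68, 2.67 and 2.63 in miR-29 and 2.75, 2.95 and 2.88 in control, with -0.20 ± 0.06 (SE). It was not called with slide as a block (-0.09), and its 2 other probes, at -0.15 and -0.11, were not called. Leaving out any array but control replicate 1 also ended its call, with values of -0.16 to -0.21.

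The small subunit decodes the message. Of its 16 proteins of bacterial type, 10 were called higher (background 35.3%) and 2 lower (background 22.7%), with a median log2 fold change of 0.25. With the spike-ins 2 were higher (background 15.2%) and 3 lower (background 38.5%). Of 11 genes listed as its mitochondria-specific proteins, Mrps36 among them, 9 were called higher and 0 lower, with a median of 0.39. With the spike-ins 4 of the 11 were higher and 1, Mrps27, was lower, against the same backgrounds. The list, from textbook knowledge, was not checked against a structure of the ribosome.

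Mrps5, at the entry of the message channel, read 2.01, 1.96 and 1.99 on the miR-29 arrays against 1.38, 1.35 and 1.29 on the control arrays. The groups did not overlap, and the log2 fold change was 0.64 ± 0.05 (SE). Its other probes gave 0.54 and 0.75. Mrps33, a mitochondria-specific protein, read 4.93, 4.86 and 4.78 in miR-29 and 4.42, 4.18 and 4.18 in control, with a log2 fold change of 0.60 ± 0.08 (SE). Its other probes gave 0.45 and 0.29, and with slide as a block the value was 0.44.

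Mrps22, in which human variants cause a respiratory chain deficiency, read 1.98, 1.93 and 1.92 on the miR-29 arrays against 1.42, 1.39 and 1.34 on the control arrays. Its log2 fold change was 0.56 ± 0.05 (SE), and with the spike-ins it was 0.31. Mrps5, Mrps33 and Mrps22 were called higher on both scales.

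Of the small subunit genes called lower, Mrps6 read 6.19, 6.14 and 6.22 in miR-29 and 6.36, 6.33 and 6.35 in control, with a log2 fold change of -0.16 ± 0.05 (SE). Its other probe, at -0.10, was not called. Mrps14, a protein of the head, read 1.93, 1.93 and 1.83 in miR-29 and 2.06, 2.03 and 2.04 in control, with -0.15 ± 0.05 (SE). For neither gene did the groups overlap, but both calls were lost with slide as a block, where the values were -0.18 and -0.16. The Mrps6 call was also lost without miR-29 replicate 1 or 2 or control replicate 2 or 3 (-0.14 to -0.17), and the Mrps14 call without any 1 of the 6 arrays (-0.11 to -0.16).

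**Figure D4:**
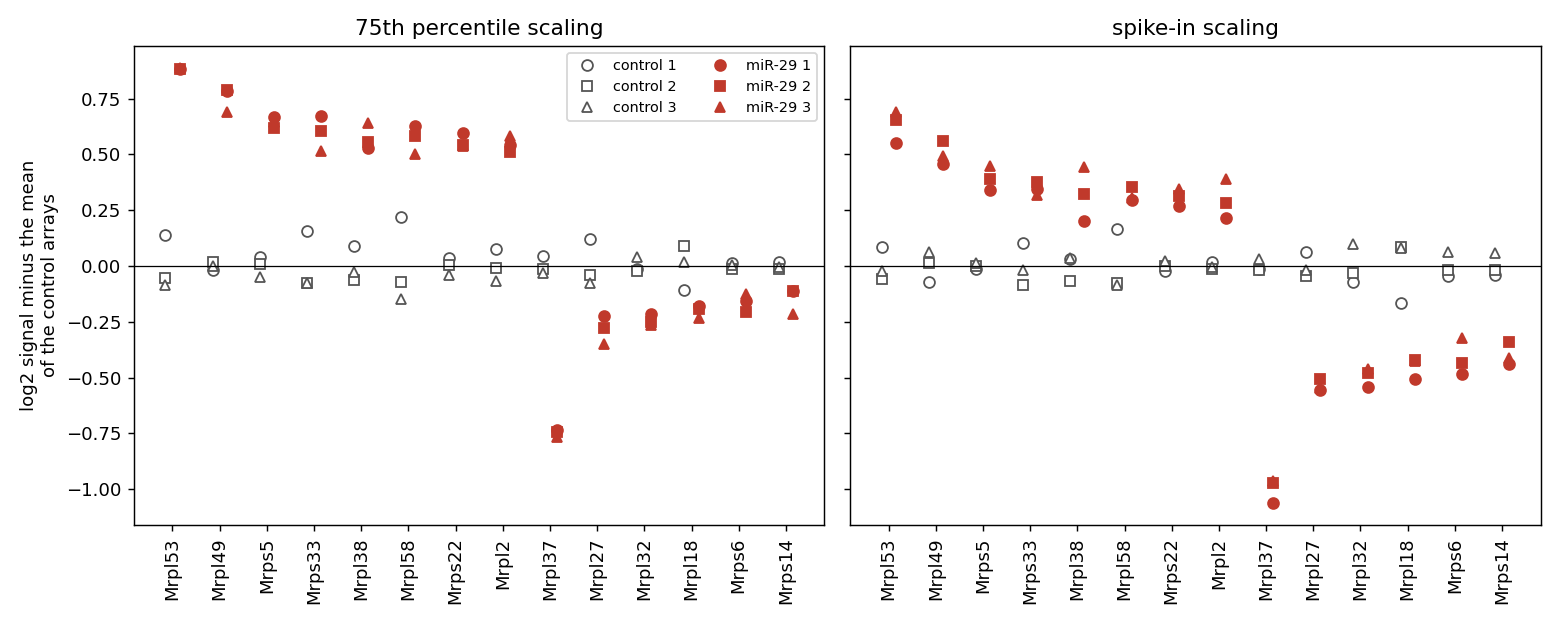
For the 8 highest and the 6 lowest genes the log2 signal on each array minus the mean of the control arrays is plotted, with the 75th percentile scaling on the left and the spike-in scaling on the right. The groups are apart for all 14 genes on both scales, and the fold changes on the right differ from those on the left by -0.25.

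Strong and weak probes held both directions. Signal depends on the probe as well as on the transcript, so levels of different genes are not compared. Among the probes with the strongest signal, Mrpl33 (subunit protein bL33) had a log2 fold change of 0.20 ± 0.06 (SE), Mrpl28 had 0.38 ± 0.07 (SE) and Mrps16 had 0.38 ± 0.06 (SE), while Mrps6 was lower as above. Mrpl33 read 5.52, 5.47 and 5.48 in miR-29 and 5.39, 5.24 and 5.24 in control. Its fold change was -0.05 with the spike-ins and was not called with slide as a block (0.10), so its direction differs between the scalings. Its call was also lost when any array but control replicate 1 was left out (0.18 to 0.22).

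Mrpl28 read 5.14, 5.11 and 5.08 in miR-29 and 4.81, 4.78 and 4.60 in control. Mrps16 read 5.00, 4.97 and 4.88 in miR-29 and 4.64, 4.579 and 4.495 in control. In both the groups were apart on both scales, at 0.13 each with the spike-ins, and neither was called there.

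Among the probes with the weakest signal, Mrps27, a pentatricopeptide repeat protein that binds RNA, read -0.78, -0.79 and -0.71 in miR-29 and -0.53, -0.66 and -0.65 in control. Its log2 fold change of -0.14 ± 0.06 (SE) was not called, and with slide as a block the value of -0.23 was. Mrps18b, a small subunit protein, read -0.49, -0.45 and -0.34 in miR-29 and -0.84, -0.89 and -0.72 in control, with a log2 fold change of 0.39 ± 0.07 (SE). Mrpl47, at the exit tunnel, read 0.17, 0.06 and 0.25 in miR-29 and 0.07, 0.10 and 0.11 in control. Its groups overlapped, at 0.07 ± 0.06 (SE).

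Of the 78 genes, 51 were measured by 1 kept probe and 27 by several. For 22 of the 27 all probes had the same sign, and the median distance between the highest and the lowest probe of a gene was 0.12 on the log2 scale. The 36 kept probes that did not stand for their gene had a median of 0.15, with 16 called higher and 0 lower, where 35.3% of all 26427 kept probes were called higher and 22.7% lower. A second probe of Mrpl41 and a second probe of Mrpl11 were not well above background on any array and were left out. Probe sequences were not used here, so probes that may also bind a pseudogene of these families were not identified.

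The 5 genes whose probes differed in sign have no settled direction. For Mrpl57, a mitochondria-specific large subunit protein, the brighter probe read 4.67, 4.70 and 4.65 in miR-29 and 4.45, 4.23 and 4.24 in control, a log2 fold change of 0.37 ± 0.07 (SE). The other probe read -4.86, -4.68 and -4.59 in miR-29 and -4.37, -4.35 and -4.67 in control, and its -0.25 ± 0.11 (SE) was not called. This distance of 0.62 was the largest between probes of any of the 27 genes.

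For Mrps2, a protein of bacterial type, the brighter probe read 1.13, 1.10 and 1.25 in miR-29 and 0.78, 0.68 and 0.76 in control, with 0.42 ± 0.06 (SE). Its other probe was at -0.13 and not called. Mrps7 and Mrps9, which sit in the head, had brighter probes at 0.08 and 0.01 and other probes at -0.16 and -0.25, and Mrps23 had 0.12 and -0.06. None of these 6 probes was called. Without control replicate 1, Mrps7 was called higher, at 0.14.

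**Figure D5:**
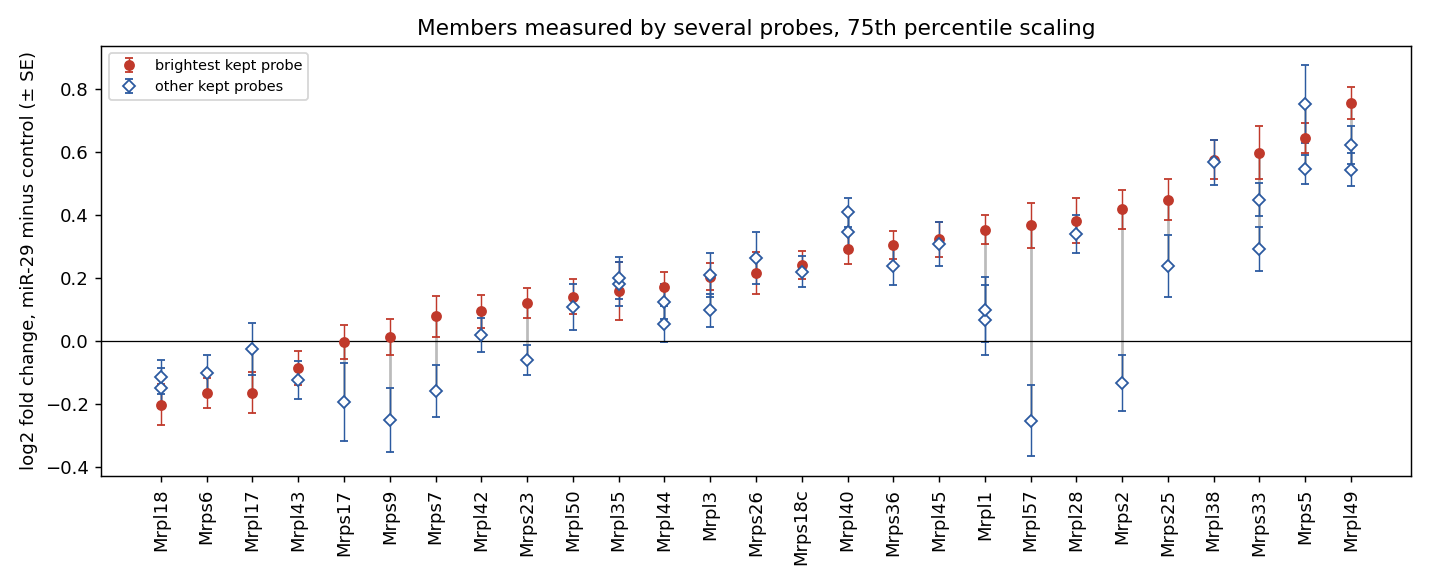
For the 27 genes with several kept probes, the log2 fold change (miR-29 minus control, 75th percentile scaling) of the brightest probe (filled) and of the other probes (open) is plotted, with bars for the SE over 6 arrays and a line joining the probes of a gene. Probes lie on the same side of 0 for 22 genes, and the widest gap, 0.62, is that of Mrpl57.

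Other genes of mitochondrial translation, from lists drawn from textbook knowledge, are given by their counts under the 75th percentile scaling. Of 5 mitoribosomal proteins with other names, 4 were called higher (background 35.3%) and 0 lower (background 22.7%), with a median log2 fold change of 0.36. Gadd45gip1, a large subunit protein, had 0.64 with its brighter probe, while its other probe, at -0.06, was not called. Ptcd3, a small subunit protein, had 0.48.

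Of 13 translation factors 11 were called higher (background 35.3%) and 0 lower (background 22.7%), with a median of 0.37. Tufm, the elongation factor that delivers tRNA, had 0.51, and the release factors Mtrf1l and Mtrf1 had 0.58 and 0.55. Of 20 mitochondrial aminoacyl-tRNA synthetases and related amidotransferase genes, which charge tRNA, 12 were called higher and 1 (Fars2, -0.19) lower, against the same backgrounds. Their median was 0.36, and Gatb (0.77), Ears2 (0.71) and Aars2 (0.68) were the highest. With the spike-ins 4 factors and 4 genes of the synthetase list were called higher (background 15.2%), and 0 and 3 lower (background 38.5%).

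Of 24 genes for ribosome assembly and rRNA modification, 13 were called higher (background 35.3%) and 3 lower (background 22.7%), with a median of 0.21. With the spike-ins 6 were higher (background 15.2%) and 7 lower (background 38.5%), with a median of -0.04. Tfb1m, which methylates the small subunit rRNA, had the largest value of the list. It read 1.24, 1.27 and 1.16 in miR-29 and -0.27, -0.37 and -0.36 in control, and the log2 fold change was 1.55 ± 0.06 (SE), or 1.30 with the spike-ins. Ybey (-0.73) and Eral1 (-0.42), both tied to small subunit rRNA maturation, were the lowest.

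Of 17 genes for mitochondrial DNA maintenance, transcription and RNA processing, 8 were called higher (background 35.3%) and 2 lower (background 22.7%), with a median of 0.13. With the spike-ins 5 were higher (background 15.2%) and 6 lower (background 38.5%), with a median of -0.12. Of 9 nuclear regulators of mitochondrial genes, 4 (44.4%) were called higher and 3 (33.3%) lower, shares near the backgrounds of 35.3% and 22.7%. Of those called higher, Pprc1 was at 0.39, Esrra at 0.29 and Ppargc1a at 0.20, with 1.06 for its other probe. Of those called lower, Myc was at -0.82 and Yy1 at -0.56. Gabpa was called higher with each of its 3 probes, at 0.17, 0.40 and 0.50. Gabpb1 was not called with its brighter probe (-0.08), and its other probe was called lower (-0.41). With the spike-ins Gabpa was at -0.08 and not called, and Gabpb1 was called lower, at -0.33. Nrf1 had probes called in opposite directions, -0.27 and 0.20, and no direction is given for it. With the spike-ins 0 of the 9 were higher (background 15.2%) and 4 were lower (background 38.5%).

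The most similar gene groups gave like values, set side by side with no test. Of 78 cytosolic ribosomal protein genes 52 were called higher (background 35.3%) and 1 lower (background 22.7%), with a median of 0.24. Of 80 oxidative phosphorylation subunit genes 54 were called higher and 2 lower, with a median of 0.27. With the spike-ins 5 of the cytosolic genes were higher (background 15.2%) and 7 lower (background 38.5%), and 12 of the oxidative phosphorylation genes were higher and 15 lower. The medians there were -0.02 and 0.02, against 0.04 for the mitochondrial ribosomal protein genes. With slide as a block 25 of the cytosolic and 42 of the oxidative phosphorylation genes were called higher (background 28.7%).

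Across the series, the share of probes well above background was 61.9% to 66.8% an array, 0 spots were saturated, and arrays correlated across genes at 0.994 to 0.998 within a group and 0.975 to 0.985 between groups. Of 11 astrocyte markers 10 were well above background on all arrays and Gjb6 on none, and the summed linear level relative to the 75th percentile was 89.1 to 98.3 in miR-29 and 60.1 to 63.8 in control. The sums were 590 to 638 against 444.5 to 493 for markers of fibroblasts, meningeal and mural cells, of which 9 of 10 were measured and Rgs5 was not. They were 6.85 to 7.03 against 8.42 to 9.08 for neurons (8 of 11 measured on all arrays), and 10.3 to 10.8 against 9.37 to 13.9 for the oligodendrocyte lineage (9 of 10, without Mog). For endothelial cells (4 of 8, without Tek) they were 1.99 to 2.08 against 2.49 to 2.86, and for microglia (3 of 8) 3.17 to 3.43 against 4.24 to 4.77, with Aif1, Cx3cr1, Ptprc and Trem2 not above background on any array. These sums are carried by the brightest genes, and single markers went both ways. Of 10 astrocyte markers tested 6 were called higher (background 35.3%), 1 (Gja1, -0.34) lower (background 22.7%) and 3 did not pass. Of 9 fibroblast, meningeal and mural markers 6 were called higher, 2 (S100a4, -1.21, and Pdgfrb, -0.67) lower and 1 (Dcn) did not pass. The part of these cells in the result was not tested.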

How the data were processed

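RNA of 6 extracts was hybridised to 1-colour Agilent arrays. Per the file headers, Agilent Feature Extraction 10.7.3.1 (10.7 in the submitters' processing notes) gave each spot's processed signal, a background-subtracted intensity on a linear scale. The authors' value table for the series carries this intensity times 1 factor an array (2.627 to 3.427). There were 0 columns of other samples.

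From the intensity deposited, log2 of the processed signal (floor 1) minus the array's 75th percentile was computed. Control and outlier spots were left out. Kept probes were those called well above background throughout at least 1 group (26427 of 41174). Unversioned RefSeq accessions were matched to the GRCm38.p6 table, which named 26933 probes with 1 symbol, none with several, and left 14241 unnamed. The array design is on another build, so no probe coordinates are given. A gene is its kept probe with the highest mean, and an unnamed accession is its own transcript. The groups were compared with limma 3.58.1 in R 4.3.3 (lmFit, eBayes, two-sided, Benjamini-Hochberg over 19740), and the procedure was tested on simulated data. That simulation changed few genes and held no slide or scaling shift, so it does not cover those features of these arrays. The number of arrays limits the precision.

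The genes and lists were chosen with earlier results of these data known. Named in full were the 8 highest and the up to 8 lowest genes called with separate groups (6 were called lower), the 4 strongest and 4 weakest probes, and genes whose probes differ in sign or by over 0.5. From other lists up to 3 called genes in each direction could be named. Gabpa and Nrf1 were added for the motif search, and Gabpb1 was added beside Gabpa. Normexp used the median foreground signal in place of the planned mean signal.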

Additional observations from a re-analysis of the deposited data

How the results depend on the processing

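Scaling moved the values most. Scaled to the detected spike-in types, all genes gave 7607 lower and 3010 higher (4487 and 6976 with the 75th percentile), and the mitochondrial ribosomal protein genes gave 12 lower and 18 higher (6 and 54), with a median of 0.0396 (0.29). With all spike-in spots, all genes gave 3313 higher and the mitochondrial ribosomal protein genes 10 lower, 15 higher and a median of 0.11. Only 3 of these genes were lower with median centring, with no filter, with the dimmest kept probe and within slide 1. The median was 0.22 with quantile normalization, 0.25 with the mean of all kept probes, 0.24 with the dimmest kept probe, and 0.22 with slide as a block or within slide 1. The spike-in median was 0.10 after normexp background correction. The cause of these moves was not tested.

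Leaving out each array in turn gave 3676 to 5727 lower and 5674 to 7424 higher over all genes. Among the mitochondrial ribosomal protein genes it gave 3 to 5 lower, 44 to 57 higher and a median of 0.25 to 0.30, or 0.004 to 0.07 with the spike-ins.

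Of 475 values of the 25 named genes under alternatives, 391 kept their direction and side of the threshold, 57 lost a call, 4 gained one and 23 over 7 genes changed sign. With the detected spike-in types and then all spike-in spots, Mrpl47 had -0.18 and -0.12, Mrps23 -0.13 and -0.0639, Mrps7 -0.17 and -0.11, and Mrps9 -0.24 and -0.17, while Mrpl33 had -0.0468 with the detected types. With the dimmest kept probe Mrpl57 had -0.25, Mrps2 -0.13, Mrps23 -0.0602, Mrps7 -0.16 and Mrps9 -0.25. With the mean of all kept probes Mrps7 had -0.0391 and Mrps9 -0.12. With slide as a block or within slide 1 Mrps7 had -0.0388 and Mrps9 -0.0266. Mrps9 was also at -0.0329 with quantile normalization, and over the arrays left out in turn it ran from -0.0172 (without miR-29 replicate 3) to 0.0406.

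Replicate numbers are shared between the groups, but the labels do not say that they pair samples. Deviations of same-numbered arrays correlated at 0.13, 0.09 and 0.25, each the best match of its array, which is a hint from the data and not the design. With the replicate block 4524 genes were lower and 7000 higher, and 4 and 53 of the mitochondrial ribosomal protein genes, with a median of 0.29.

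Small fold changes are near the limit of 3 arrays a group. Signal over background did not limit the 78 genes, whose representative probes were detected on all arrays.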
